A study of Mus musculus with 6 samples.

Results

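The 8 genes described here encode proteins of neutrophil granules. They were chosen by name and read through every probe set that the platform annotation gives to exactly 1 of them, which came to 8 probe sets, 1 per gene, of 22626 non-control probe sets for 12393 named genes. Elane (neutrophil elastase), Prtn3 (proteinase 3), Ctsg (cathepsin G) and Mpo (myeloperoxidase) belong to azurophil granules. Camp (the cathelicidin antimicrobial peptide), Ngp (neutrophilic granule protein), Ltf (lactoferrin) and Lcn2 (lipocalin 2) belong to specific granules. In these cultures of dendritic cells (DC) they serve as a measure of how much granulocyte RNA was present.

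Neutrophil precursors in bone marrow make granule proteins in a fixed sequence: azurophil proteins at the promyelocyte stage, specific granule proteins later, at the myelocyte stage. Mature neutrophils carry the proteins but have largely stopped transcribing the azurophil genes, so that azurophil transcripts mark early precursors. PU.1 and C/EBP proteins are transcription factors that drive both programmes. Lcn2 is also made outside granulocytes, among others by macrophages, where inflammatory signals acting through NF-kB induce it.

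Bone marrow came from a female CAR-transgenic mouse aged 13 weeks, and the labels name 1 mouse. Marrow cells were expanded for 7 days with SCF, hyperIL-6, Flt-3L, IGF-1, dexamethasone and 25 U/ml GM-CSF, with a density gradient on the way, then differentiated into DC for 7 days with 250 U/ml GM-CSF, and all 6 groups share this culture. The groups were left without virus (untreated), given TNFa at 50 ng/ml for 4 h (TNFa), or given the adenovirus AdOVA (control) or AdIkBa-SR at 1500 particles per cell for 2 h and 18 h of further culture, each without or with TNFa for 4 h (AdOVA, AdOVA+TNFa, AdIkBa-SR, AdIkBa-SR+TNFa). AdIkBa-SR carries a super-repressor form of IkBa, the inhibitor that holds NF-kB in the cytoplasm. No mock transduction is recorded, so virus and procedure cannot be told apart. Each group has 1 Affymetrix MOE430A array, so no pair of arrays has a replicate check and precision is limited by how few arrays there are.

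Values are MAS5 signals, in arbitrary units of brightness, and those under 53.5 (the 40th percentile over non-control probe sets) are treated as under the floor. Median signals ran from 74.4 to 88.5 over the arrays. By their headers, AdOVA+TNFa and both AdIkBa-SR arrays were hybridized together, apart from the other 3. Wash settings differed for AdIkBa-SR without TNFa, at 0 recorded cycles in both washes where the others had 10 and 4. The AdOVA+TNFa array stood apart on the 5' control probe set for 18S ribosomal RNA, at 2601 against 120 to 537 on the others. Of the 15 DC markers, 14 were above the floor on at least 2 arrays, among them Itgax (CD11c; 247 to 847) and Cd74 (the invariant chain of MHC class II; 1515 to 3139), while the T cell genes Cd3e and Cd3g were under the floor on every array. The cultures also carried monocyte and macrophage genes, with Csf1r from 4773 to 8848. Because the RNA is from bulk cultures, fewer granulocytes and less granule mRNA per cell cannot be told apart.

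The promoters of the members were read from RefSeq (GRCm38.p6), which held all 8, to describe which motifs occur in each granule type. Searched on both strands of the 250 bases before each gene's start, GAGGAA, the core of the PU.1 motif, occurred in 6 of 8 (all 4 azurophil genes, Ltf and Lcn2), and in 23.3% of all promoters. TTNNGNAA, a C/EBP motif, occurred in 3 of 8 (Ngp, Ltf and Lcn2), which is near its share of 36.8% over all promoters. The NF-kB motif occurred in none of the 8 windows and in 7.25% of all promoters. Camp held none of the 3 in this window. Below are both serine protease genes that lie next to each other on chromosome 10 and the 2 specific granule genes with the most C/EBP matches, 5' to 3' in the direction of transcription, with PU.1 cores and C/EBP motifs in capitals. A match is a description of letters, not a binding site.
Prtn3, chr10:79879417-79879666, plus strand: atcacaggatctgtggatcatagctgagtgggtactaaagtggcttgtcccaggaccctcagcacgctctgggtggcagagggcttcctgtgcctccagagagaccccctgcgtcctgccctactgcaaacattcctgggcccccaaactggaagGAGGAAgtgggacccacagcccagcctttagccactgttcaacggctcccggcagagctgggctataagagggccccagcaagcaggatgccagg
Elane, chr10:79886062-79886311, plus strand: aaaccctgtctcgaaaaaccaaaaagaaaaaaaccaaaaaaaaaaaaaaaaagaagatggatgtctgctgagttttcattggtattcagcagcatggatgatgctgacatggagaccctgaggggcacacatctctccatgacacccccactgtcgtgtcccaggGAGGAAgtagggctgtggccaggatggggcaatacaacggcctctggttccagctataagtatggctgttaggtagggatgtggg
Ngp, chr9:110419558-110419807, plus strand: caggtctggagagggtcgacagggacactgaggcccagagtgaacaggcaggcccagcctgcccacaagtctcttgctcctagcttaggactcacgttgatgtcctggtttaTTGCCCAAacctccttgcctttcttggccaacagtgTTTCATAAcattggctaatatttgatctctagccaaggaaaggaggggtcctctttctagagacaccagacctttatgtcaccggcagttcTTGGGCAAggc
Ltf, chr9:111019042-111019291, plus strand: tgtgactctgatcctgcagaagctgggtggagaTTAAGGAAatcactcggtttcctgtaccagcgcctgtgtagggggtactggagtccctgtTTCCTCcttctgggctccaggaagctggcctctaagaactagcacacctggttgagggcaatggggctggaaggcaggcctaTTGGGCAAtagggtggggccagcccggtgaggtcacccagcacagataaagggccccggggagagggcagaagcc
In Prtn3 and Elane the PU.1 core began at -95 and -85 from the start. Ngp had C/EBP matches at -138, -102 and -11, and Ltf at -217 and -75, with TTGGGCAA the letters in both at -11 and -75, and a PU.1 core (TTCCTC, the other strand) at -157 in Ltf.

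All 8 members were above the floor on at least 4 of the 6 arrays. Elane, a serine protease that digests bacteria and matrix, gave 137 without and 32.3 after TNFa in cells free of virus, 124 and 29.7 in AdOVA cells, and 83.6 and 99.4 in AdIkBa-SR cells. It was under the floor with TNFa without virus and with AdOVA, and above it in AdIkBa-SR cells with TNFa. Prtn3, a close relative of elastase, had 151, 90.3, 86.2, 74.8, 218 and 219 in the same order. Both AdIkBa-SR arrays were above the other 4 for this gene, whose neighbour Elane stood highest untreated. Ctsg, the chymotrypsin-like protease of the same granules, read 152, 129, 135, 31.4, 151 and 136. Its AdOVA+TNFa array was under the floor, and the other 5 lay close together. Mpo, which makes hypochlorous acid, had 120, 92.8, 162, 147, 116 and 114, so that both AdOVA arrays were its highest and the TNFa array its lowest.

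Among the specific granule genes, Camp, the precursor of an antimicrobial peptide, gave 168 without and 110 after TNFa in cells free of virus, 147 and 43.0 in AdOVA cells, and 204 and 202 in AdIkBa-SR cells. As for Ctsg, the AdOVA+TNFa array was under the floor, and both AdIkBa-SR arrays were above the other 4. Ngp, a secreted protein related to cathelicidins and cystatins, read 2149, 1324, 2029, 1942, 2899 and 4504. Ltf, which binds iron, read 531, 488, 387, 559, 791 and 1136. For Ngp and Ltf both AdIkBa-SR arrays were above the other 4, and AdIkBa-SR+TNFa was the highest. Lcn2, which captures bacterial siderophores, read 7484, 5265, 8145, 8269, 6330 and 8688, a span of 1.65-fold. Over the 8 genes, the lowest array was AdOVA+TNFa for 4, TNFa for 3 and AdOVA for 1, and the highest was AdIkBa-SR+TNFa for 4, untreated for 2, and AdOVA and AdIkBa-SR for 1 each.

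**Figure D1:**
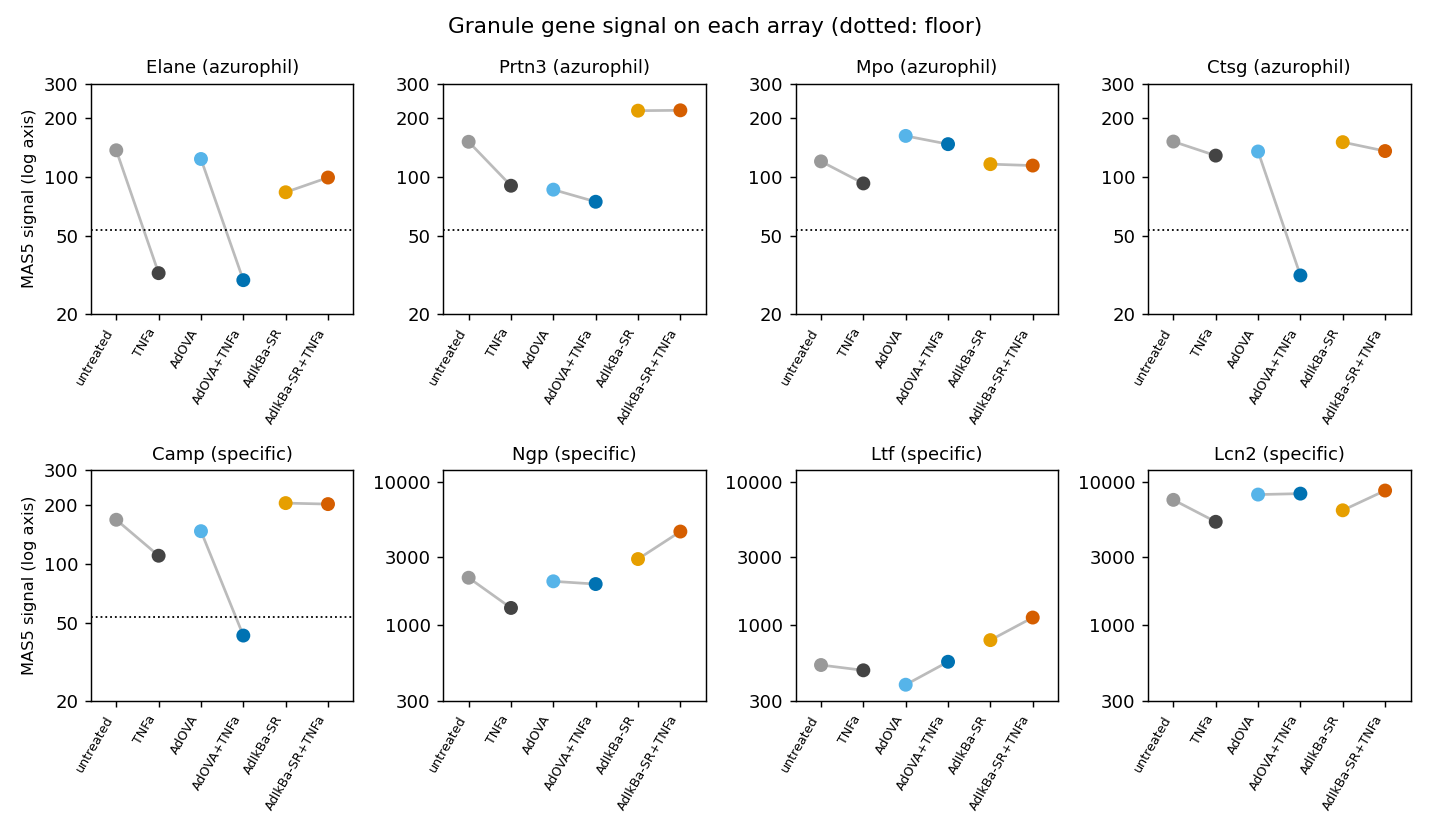
MAS5 signal (log axis) of each granule gene on the 6 arrays, 1 point per array, with grey lines joining the arrays without and with TNFa of each virus state and a dotted line at the floor of 53.5 where the panel reaches it. Elane is under the floor on the TNFa and AdOVA+TNFa arrays, and Ctsg and Camp on the AdOVA+TNFa array. Prtn3, Camp, Ngp and Ltf are highest on the AdIkBa-SR arrays.

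The first comparison asks how TNFa moved these genes in cells without virus and with AdOVA. Without virus, the signal of all 8 was lower with TNFa, where 45.5% of 14906 measured probe sets were lower by any amount and 48.7% higher, and the direction held with equal medians and with quantile normalization. Elane was at least 2.56-fold lower, and was the only member past 2-fold (1.05% of measured probe sets were at least 2-fold lower and 0.731% higher). Prtn3 was 1.68-fold, Ngp 1.62-fold and Camp 1.53-fold lower, and Ltf 1.09-fold. The members' median log2 difference was -0.56, with -0.56 for azurophil and -0.56 for specific granule genes, beside 0.00 for all measured probe sets.

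With AdOVA, TNFa went with a lower signal in 6 of 8 members and a higher one in 2, against 44.2% and 53.1% of all probe sets. The 3 that were at least 2-fold lower (3.32% of all, with 4.7% higher) are the 3 under the floor on the AdOVA+TNFa array: Camp at least 2.74-fold, Ctsg at least 2.53-fold and Elane at least 2.31-fold. Ngp stood at 2029 and 1942 and Lcn2 at 8145 and 8269, differences that change sign with quantile normalization and with equal medians respectively, and Ltf was 1.44-fold higher. The azurophil median was -0.71 and the specific median -0.02. Elane was thus the 1 member at least 2-fold lower in both pairs, which share no array but, by the labels, 1 mouse. Its array with TNFa was under the floor in each pair, and its highest signal on any array was 2.56 times the floor. The AdOVA pair spans both hybridization times, which cannot be told apart from TNFa. How many of all probe sets were at least 2-fold lower in both pairs was not counted.

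limma, fitted to all 6 arrays over all measured probe sets, called none of the 8 for the TNFa response shared by both virus states, and 3 had an unadjusted p under 0.05. The call rate over all probe sets was 0.0268% higher and 0% lower. Elane had the largest fitted difference (log2 -1.28, SE 0.29, limma adjusted p = 0.14), followed by Camp (-1.03, SE 0.34, adjusted p = 0.22) and Ctsg (-0.79, SE 0.35, adjusted p = 0.40). Without a floor, on log2(signal + 16), Elane was called as lower (-1.64, limma adjusted p = 0.041). An additive fit to all 6 arrays, with 1 TNFa response for all 3 virus states, gave -0.77 for Elane and -0.69 for Camp. Without the AdOVA+TNFa array this additive fit gave -0.55 and -0.31. Both versions pool in the TNFa response of AdIkBa-SR cells, which the main fit keeps apart, so they differ from it in more than the array.

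In cells with AdIkBa-SR the granule genes did not share the lower signal with TNFa: 3 of 8 were lower and 5 higher, against 47.7% and 45.5% of all measured probe sets, and none was past 2-fold (2.03% higher and 0.832% lower over all). Ngp was 1.55-fold, Ltf 1.44-fold, Lcn2 1.37-fold and Elane 1.19-fold higher, and Prtn3, Mpo, Camp and Ctsg were within 1.11-fold. limma called none of the 8 (adjusted p = 1 for each, 0 with an unadjusted p under 0.05), and 0 of 14906 probe sets in either direction. This pair compares arrays with different wash protocols, which cannot be told apart from TNFa. The difference between the TNFa responses with and without AdIkBa-SR was above 0 in the fit for all 8, and limma called none of them (adjusted p of 0.97 and more, 2 with an unadjusted p under 0.05), nor any of the 14906 probe sets. It was largest for Elane (log2 1.53, SE 0.51), then Camp (1.02, SE 0.59) and Ngp (1.02, SE 0.46). A response that is lower without AdIkBa-SR is therefore not shown to differ from that with it.

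**Figure D2:**
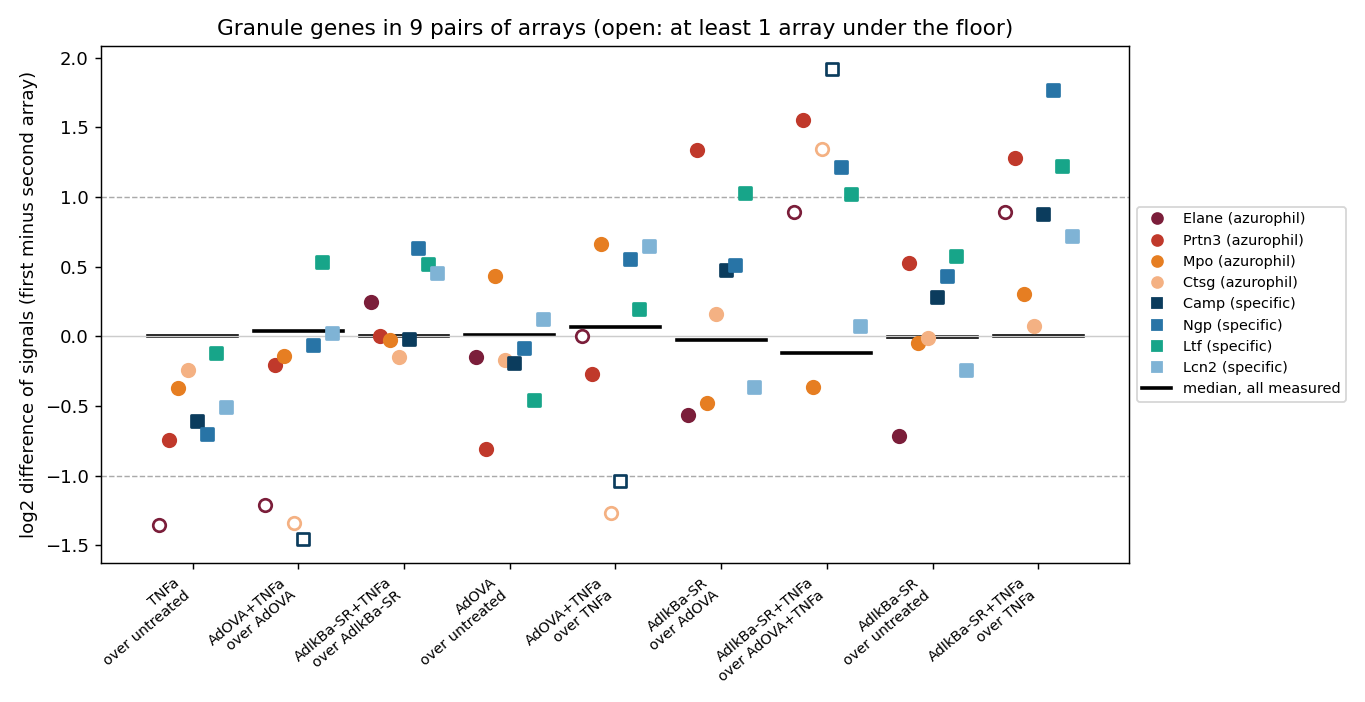
Log2 difference between the signals of 2 arrays for each granule gene (circles azurophil, squares specific) in 9 pairs, with open symbols where at least 1 array is under the floor, black bars for the median of all measured probe sets and dashed lines at 2-fold. All 8 genes lie below 0 for TNFa over untreated and all 8 above 0 for AdIkBa-SR+TNFa over TNFa.

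For the control virus on its own, members lay on both sides of 0. For AdOVA over untreated, 6 of 8 were lower and 2 higher (46.7% and 50.5% of all probe sets) and 0 past 2-fold (4.46% lower and 4.41% higher over all probe sets), with Prtn3 1.76-fold lower and Mpo 1.35-fold higher. For AdOVA+TNFa over TNFa, 4 were higher and 3 lower (54.8% and 42.9% of all probe sets), with Elane under the floor on both arrays, and Ctsg was at least 2.41-fold and Camp at least 2.06-fold lower (4.95% of all probe sets were at least 2-fold lower and 6.26% higher). The arrays of AdOVA+TNFa and TNFa were hybridized apart, which cannot be told apart from the virus. Equal medians gave 3 higher and 4 lower for this pair, with Ltf turned, and quantile normalization gave 1 higher and 7 lower for AdOVA over untreated, with Lcn2 turned. limma called none of the 8 for AdOVA, with 0 at an unadjusted p under 0.05, where it called 4.03% of all probe sets as higher and 3.86% as lower. Fitted log2 differences ran from -0.72 for Ctsg (SE 0.35) to 0.55 for Mpo (SE 0.33). In an additive fit without the AdOVA+TNFa array Ctsg was at -0.15 and Camp at -0.05 in place of -0.62, and Elane turned from -0.07 to 0.25. That fit rests on a TNFa response shared with AdIkBa-SR cells, so it differs from the main fit in more than the array. The signals themselves had Elane lower with AdOVA than untreated (124 and 137).

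Among these comparisons limma called members in 1, between the viruses under TNFa. With TNFa, limma called Ngp, Prtn3 and Camp as higher with AdIkBa-SR than with AdOVA, 3 of 8 members against 2.35% of all measured probe sets, and none as lower (1.66%). Ngp rose from 1942 to 4504 (fitted log2 1.37, SE 0.35, limma adjusted p = 0.033), Prtn3 from 74.8 to 219 (1.69, SE 0.44, adjusted p = 0.037) and Camp from under the floor to 202, at least 3.77-fold (1.70, SE 0.45, adjusted p = 0.040). Ltf, at 559 and 1136, missed the threshold (1.19, SE 0.33, adjusted p = 0.052), as did Ctsg (1.07, SE 0.46, adjusted p = 0.22) and Elane (0.93, SE 0.39, adjusted p = 0.20). Lcn2 (8269 and 8688) and Mpo (147 and 114) lay within 1.29-fold. The fitted values take the AdOVA+TNFa level from all 4 arrays without AdIkBa-SR, and do not use the differently washed AdIkBa-SR array. Of those 4, only AdOVA+TNFa was hybridized together with AdIkBa-SR+TNFa. The fitted differences, unlike the pair of arrays, therefore do not fully separate hybridization time from virus.

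In signals, 7 of 8 members were higher on the AdIkBa-SR+TNFa array and 1 lower (38.7% and 58.4% of all probe sets), and 5 were at least 2-fold higher and 0 lower (5.41% and 4.85%), between arrays that were hybridized together. Equal medians moved the median of all measured probe sets for this pair from -0.12 to 0.05, and left 7 higher and 5 at least 2-fold, while quantile normalization left 6 and 3, with Lcn2 lower. The 3 calls were all lost in 6 of 13 other settings, and Prtn3 alone was left in 2. The additive fit without the AdIkBa-SR array is among the 13, but it repeats the main fit's difference and is no separate check. With an additive fit that leaves out the AdOVA+TNFa array, which had the high 18S signal and held 3 members under the floor, the fitted log2 differences were 1.53 for Prtn3, 0.85 for Ngp and 0.62 for Camp, and Elane changed sign to -0.16. That fit gives 1 virus difference for both TNFa states and takes the AdOVA level from the AdOVA array without TNFa. It therefore does not measure the difference under TNFa by itself. The part of the 18S signal in these values was not tested.

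**Figure D3:**
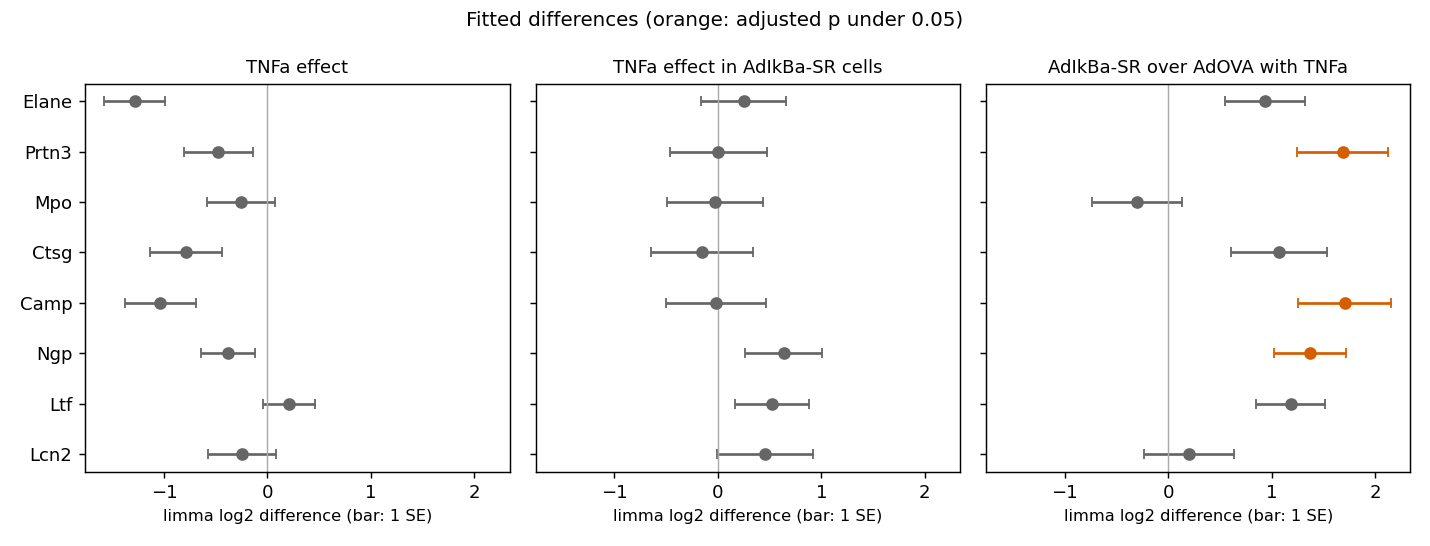
Fitted log2 differences from limma for the 8 granule genes, with bars of 1 SE, for the single TNFa response fitted to virus-free and AdOVA cells, for the TNFa response in AdIkBa-SR cells and for AdIkBa-SR over AdOVA with TNFa, where orange marks an adjusted p under 0.05. Orange points are Ngp, Prtn3 and Camp in the third panel.

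The same contrast without TNFa gave no calls among the members. Prtn3 was 2.53-fold and Ltf 2.04-fold higher with AdIkBa-SR than with AdOVA (3.82% of all probe sets were past 2-fold higher and 4.39% past 2-fold lower). In all, 5 of 8 were higher and 3 lower, against 44.2% and 52.2%, and Elane, Mpo and Lcn2 were lower by 1.48-fold or less. limma called none (0.436% of all probe sets higher and 0.731% lower), with 2 at an unadjusted p under 0.05 and Prtn3 the largest (log2 1.20, SE 0.44, limma adjusted p = 0.21). The pair spans both hybridization times and both wash protocols, which cannot be told apart from the virus.

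Against cells without virus, AdIkBa-SR+TNFa stood higher than TNFa for all 8 members, where 44.8% of all probe sets were higher and 49.2% lower, and under both other scalings too. Ngp was 3.40-fold, Prtn3 2.43-fold and Ltf 2.33-fold higher (3.1% of all probe sets were past 2-fold higher and 2.62% past 2-fold lower), Elane was at least 1.86-fold higher, and Ctsg (129 and 136) was the closest. This pair shares the AdIkBa-SR+TNFa array with the comparison under TNFa above and is no separate support for it. It spans both hybridization times, as does the pair without TNFa, which also spans both wash protocols. Neither can be told apart from the virus. limma called none of the 8 (0.0738% of all probe sets higher and 0.00671% lower, and 5 members with an unadjusted p under 0.05), with Ngp the largest (log2 1.61, SE 0.35, adjusted p = 0.15). Without TNFa, 4 members were higher and 4 lower than untreated (43.1% and 50.4% of all probe sets), all within 1.64-fold (0.584% were at least 2-fold higher and 0.543% lower), with Mpo and Ctsg changing sign under both other scalings, and limma called none (0.0134% of all probe sets higher, and 1 member with an unadjusted p under 0.05).

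Other genes of granules and neutrophils were read from lists fixed by name. The list named for specific and gelatinase granules is not limited to granule proteins. Of its 17 measured genes, none of them members, 15 had a positive difference for AdIkBa-SR over AdOVA with TNFa (median log2 0.70, against -0.12 for all probe sets), and limma called 1 as higher and 0 as lower: Pglyrp1, a peptidoglycan-binding protein of specific granules, at 233 and 642 (1.69, SE 0.40, limma adjusted p = 0.024). In the signals of the 2 arrays 15 were higher, where 38.7% of all probe sets were. Mmp8, the neutrophil collagenase, stood at 5218 and 9151 and was not called. Of 8 other azurophil or promyelocyte genes, the cystatin Cst7 rose (124 to 386, limma adjusted p = 0.045) and 5 had a negative fitted difference (median -0.03), where the signals of the 2 arrays themselves gave 5 higher and 3 lower (median 0.07). Serpinb1a, an inhibitor of the granule proteases, rose with AdOVA, 154 against 413 in the absence of TNFa and 164 against 463 in its presence (log2 1.46, SE 0.28, limma adjusted p = 0.0035). Plac8, of the same list, was also called as higher with AdOVA (log2 1.34, SE 0.26, limma adjusted p = 0.0042). Ms4a3, a promyelocyte gene, varied little, from 148 to 214.

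Of 13 measured genes of mature neutrophils, limma called 0 for AdIkBa-SR over AdOVA with TNFa, with 7 positive and a median of 0.19. The signals of the 2 arrays themselves gave 5 higher and 8 lower (median -0.07). S100a9, a subunit of calprotectin, read 8197 and 5714 without virus, 7660 and 2618 in AdOVA cells, and 9746 and 8866 in AdIkBa-SR cells, with the arrays in the order that Camp had. Its partner S100a8 read 8278, 4824, 6825, 4190, 9113 and 9756. Csf3r, the receptor for the granulocyte growth factor G-CSF, read 248 to 389 and was not lower after TNFa without virus (265 and 389) or with AdOVA (278 and 371), and the chemokine receptor Cxcr2 was above the floor on 3 arrays. The decoy receptor Il1r2 rose with AdOVA (269 to 747 without TNFa; limma adjusted p = 0.013). In the other lists, limma called as higher with AdOVA Ccr7 (log2 1.29), the DC homing receptor, and Fcgr1 (1.06), a receptor for antibodies. It called as lower Ppbp (-2.25), Cd93 (-2.20), Ccl17 (-1.66), Itgax (-1.35), Cpa3 (-0.87), Hprt (-0.99) and the proliferation genes Top2a (-1.66), Rrm2 (-1.55) and Cdk1 (-1.12). Without TNFa, Ppbp, Cd93 and Itgax were also called as higher, and Ccr7 as lower, with AdIkBa-SR than with AdOVA. Of 10 measured transcription factors of granulocyte formation, 0 were called for any comparison. Gfi1, which early precursors need, was under the floor on every array, and 7 of 20 mature neutrophil genes, Ly6g among them, were not analysed here.

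Of 9 measured eosinophil, mast cell and basophil genes, 7 had a positive difference (median log2 0.80) and limma called 1 as higher and 0 as lower: Prg2, the eosinophil major basic protein, at 262 with AdOVA+TNFa and 832 with AdIkBa-SR+TNFa (1.63, SE 0.32, adjusted p = 0.010). The summed signal of the list ran from 1713 (AdOVA+TNFa) to 3067 (AdIkBa-SR), that of the azurophil members from 283 to 569 and that of the specific members from 7186 (TNFa) to 14529 (AdIkBa-SR+TNFa). Of 7 measured erythroid and megakaryocyte genes, the platelet chemokines Ppbp (56.4 and 735) and Pf4 (2629 and 9168) rose, while 3 were positive and 4 negative in all (median -0.07). Of 11 monocyte and macrophage genes, Cd68 rose and 8 were positive (median 0.25), and of 14 DC genes Itgax and Ccl17 rose, Fscn1 fell and 7 were positive (median -0.04). Of 8 stem and progenitor genes, Cd93 rose, 3 were positive and 5 negative (median -0.07), and of 3 lymphocyte, 11 proliferation and 5 reference genes limma called 0. The reference genes Hprt (274 and 715) and Rplp0 (2904 and 6641) were nonetheless at least 2-fold higher in this pair of arrays, 2 of 5 in the list, and like Camp and Ctsg both had their lowest signal on the AdOVA+TNFa array. The part of any of these cell types in the members' signals was not tested.

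**Figure D4:**
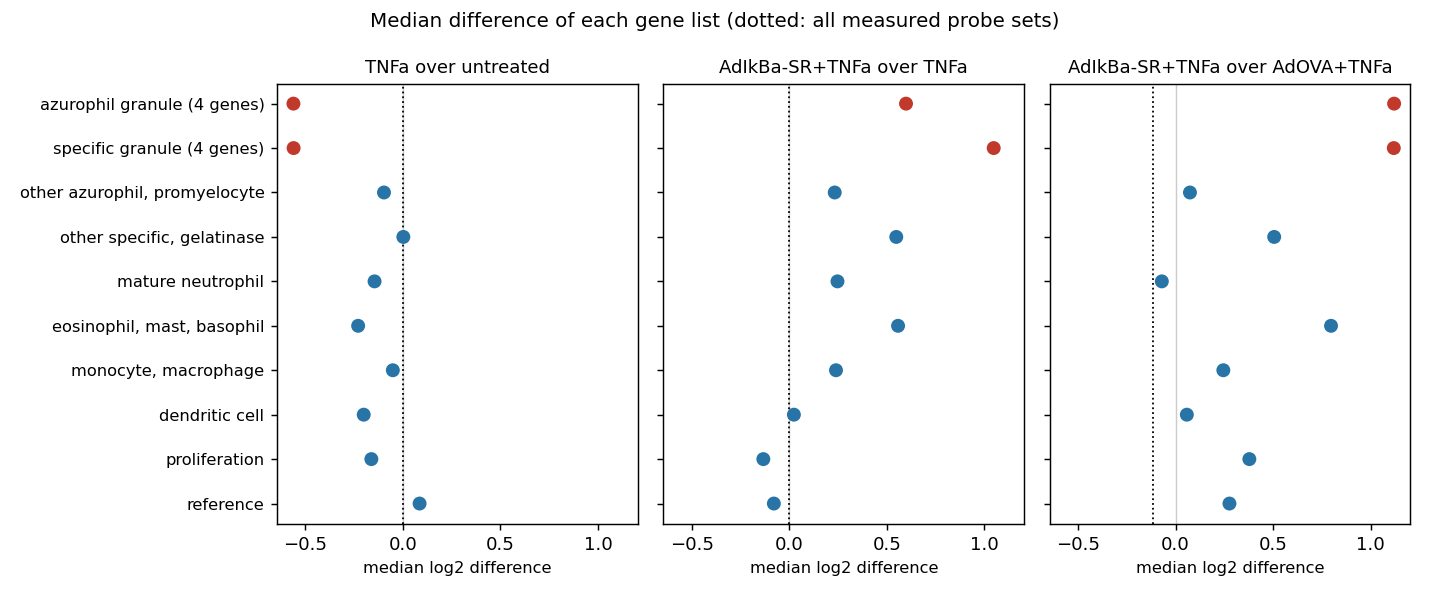
Median log2 difference between 2 arrays over the measured genes of each list, red for the granule genes described here and blue for other lists, with a dotted line at the median of all measured probe sets. In the AdIkBa-SR+TNFa over AdOVA+TNFa panel both granule groups stand at 1.12, the eosinophil, mast cell and basophil list at 0.80 and the mature neutrophil list at -0.07.

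The members did not share 1 profile over the 6 arrays. Pearson's r between log2 signals was highest for Ctsg with Camp (0.93), whose low point is the same array, then Ngp with Ltf (0.86) and Prtn3 with Camp (0.82). It was 0.43 for the neighbouring genes Elane and Prtn3, and below 0 for Mpo with Prtn3 (-0.37), Ctsg (-0.40), Camp (-0.28) and Ltf (-0.35). Lcn2 was also below 0 with Ctsg (-0.30) and Camp (-0.05). Each r rests on 6 arrays that share their culture and carries no p. Among 2388 other genes above the floor on all 6 arrays and spanning at least 2-fold, the profile most like the members' mean was that of S100a8 (r = 0.99). S100a10, Pdap1, Cib1, Myo1f, Pold4, Ap2s1, Psmc5, Ccdc12 and Rex1bd followed, with r from 0.98 to 0.97. The 3 genes most like each member were Ssr4, S100a9 and Vamp8 for Camp (r = 0.99 each), Psmb1, Rps7 and Btf3l4 for Ctsg (0.99 each), and Cd300c2, Tmem40 and Pfdn1 for Prtn3 (0.97 each). For Mpo they were Tsc22d3 (0.99), Tbrg1 (0.98) and Fancl (0.98), and for Elane Dpcd, 2310039H08Rik and Selenom (0.96 each). For Ngp they were Sh2d3c (0.99), Car4 (0.96) and Pglyrp1 (0.95), for Ltf Slc37a2 (0.99), the eosinophil peroxidase gene Epx (0.99) and Emp1 (0.96), and for Lcn2 Ms4a10 (0.97), Timm17b (0.97) and Gdf3 (0.96).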

How the data were processed

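Signals of 22690 probe sets (64 of them controls) on 6 arrays were used as the authors deposited them, as MAS5 intensity on a linear scale per the submitters' processing notes, which name no version. The 2% trimmed mean was alike on all arrays (ratio 1.0001), so nothing was rescaled. The platform annotation gives 1 gene symbol to 20380 probe sets, several to 691 and none to 1555, and a gene that is no member was read from its brightest probe set. Signals were floored at 53.5 and log2 values taken, so that folds are bounds ("at least") where an array is under the floor, and 14906 probe sets above the floor on at least 2 arrays were tested. limma 3.58.1 (R 4.3.3; lmFit, eBayes with a trend) was fitted with 5 coefficients: 3 virus states, 1 TNFa response for cells without virus and with AdOVA, and 1 for AdIkBa-SR cells. This leaves 1 residual degree of freedom, the spread is how far the first 2 TNFa responses differ, pooled over probe sets, and AdIkBa-SR arrays are assumed to vary alike. The response without virus is between arrays hybridized together, and that with AdOVA between arrays hybridized apart. A call is a p-value under 0.05 after Benjamini-Hochberg adjustment over all 14906. The labels do not say that groups came from separate cultures, so p-values may measure technical spread only. Tested on simulated data for AdIkBa-SR over AdOVA with TNFa, the fit found 2 of 200 2-fold changes among 14906 probe sets, 189 of 200 4-fold changes with 42 false calls, and 199 of 200 8-fold changes with 16. The changed probe sets were drawn only from those above the median signal, so these rates of finding need not hold for dim members. Of the 42 false calls, 26 were on probe sets below that median. At 4-fold and at 8-fold the false calls exceed the nominal 5%, so calls with an adjusted p just under 0.05, those of the members among them, are weak. For the AdOVA effect the fit found 107 of 200 2-fold changes with 23 false calls. It found 199 of 200 4-fold changes with 17, and 200 of 200 8-fold changes with 43, so the same limit holds for AdOVA calls.

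The members and lists were chosen with earlier results of these data known. Named were all members, called genes of each list (at most 4), a few uncalled ones chosen after their values were seen, and the genes whose profiles over the arrays were most like the members'. Hybridization times and wash settings come from the array headers. Alternatives were the floor, scaling, filter, model, variance trend, probe set choice and fold threshold.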

Additional observations from a re-analysis of the deposited data

How the results depend on the processing

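With 1 array per group, no fit could leave out a replicate, and no paired analysis was possible because no group has a second replicate. For AdIkBa-SR over AdOVA with TNFa, where 3 granule genes were called, the count was 0 with the floor at the 30th percentile, with quantile normalization, with no filter on dim probe sets, with the mean over all probe sets of a gene, and in additive fits with the hybridization round as a block or without the AdOVA+TNFa array. It was 1 with equal medians and in the plain additive fit. The fitted log2 difference stayed positive in every setting that could be run for Prtn3 (1.36 to 1.89), Ngp (0.85 to 1.58) and Camp (0.62 to 1.94). The additive fits give both TNFa states 1 value, and none for the TNFa response in AdIkBa-SR cells or the difference of responses. For AdIkBa-SR over AdOVA without TNFa (0 members called with 5 coefficients), the plain additive fit called 1 and that with the round as a block 0. The additive fit without the AdIkBa-SR array holds no array of AdIkBa-SR cells without TNFa. Its value for this contrast repeats the main fit's difference under TNFa, so it is no reading without TNFa and no separate check of the calls. TNFa called 1 (Elane) without a floor. AdIkBa-SR over no virus with TNFa called 1 (Ngp) when only probe sets above the floor on all 6 arrays were tested, which leaves 5 members. Of 72 differences of members in the 9 pairs, 16 were at least 2-fold and 28 at least 1.5-fold. Of 744 values of single members under other settings, 24 lost a call and 7 gained one, and 0 called values changed sign. The gains include calls of the fit without the AdIkBa-SR array for the contrast without TNFa. The causes were not tested. Elane, Ctsg and Camp each have arrays under the floor, which compresses their differences.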
